A study of Mus musculus with 13 samples.

Results

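Mature Ccr7+ Fscn1+ dendritic cells (DC) of the mouse liver were described through a cholangitis induced by diet with 3,5-diethoxycarbonyl-1,4-dihydrocollidine (DDC). A cell barcode was a member if it held at least 1500 unique molecular identifiers (UMIs, each standing for 1 captured transcript), at least 2 UMIs of Ccr7, at least 2 of Fscn1, at least 5 of the MHC class II gene H2-Ab1, and 0 of the T cell gene Cd3e and the B cell gene Ms4a1. This gate found 362 members among 95563 barcodes of at least 1500 UMIs in 13 libraries. They were compared with 4942 Cd209a-positive DC and 3631 Xcr1-positive DC of the same libraries, which needed at least 2 UMIs of their gene, 0 UMIs of the other's gene, the same H2-Ab1, Cd3e and Ms4a1 limits, and fewer than 2 UMIs of Ccr7 or of Fscn1. The cells were chosen by the UMIs of these gate genes, so their levels are a description with no test, and the proposed markers Il4i1, Socs2 and Apol7c are treated alike.

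The libraries are droplet-based 3′ scRNA-seq of liver cells from male C57BL/6J mice aged 6 to 12 weeks, taken at D0 or after 3, 5, 9, 19 or 25 days of chow with 0.1% DDC. For each day there is 1 library of isolation protocol A and 1 of protocol B, named here by day and protocol, as D5 A. In protocol A, viable fractions were sorted as Cd45+, as Epcam+, as Pdpn+, as Lyve-1+, as Cd31+ without Lyve-1, and by retinoid autofluorescence. Protocol B sorted Cd45+ Itgax+ Cd64-, Epcam+ and Cd3e+ Lyve-1- fractions and added viable cells of a stellate cell preparation. Both protocols also differ in their index kits. D0 is steady-state (2 libraries), D3 and D5 are onset (4), and D9, D19 and D25 are progression (6). The remaining library, STOP B, was made after 18 days of DDC and 7 days of recovery, and the library counted as D19 B gives day 18 in 1 of its labels. The labels do not tie libraries to animals or say whether mice were pooled, so p-values measure only the spread between libraries, which may be technical.

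Each library held between 29307190 and 108602421 UMIs. Members numbered 10 in D0 A and 67 in D0 B, 36 to 64 in the onset libraries, 3 to 21 in the progression libraries and 31 in STOP B. UMIs of the members were summed per library, and the 11 libraries with at least 10 members were used, which leaves out D19 A (4) and D25 A (3). The sums held between 74788 UMIs (D0 A) and 1083370 UMIs, with 0.81% to 4.24% mitochondrial UMIs. Levels are in CPM, the UMIs of a gene scaled to a common total per sum, and since they are shares of the members' RNA, a lower level can mean fewer transcripts or more of other transcripts. Of the members' barcode sequences, 16 were a cell in another library too, and 0 were a member there.

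**Figure D1:**
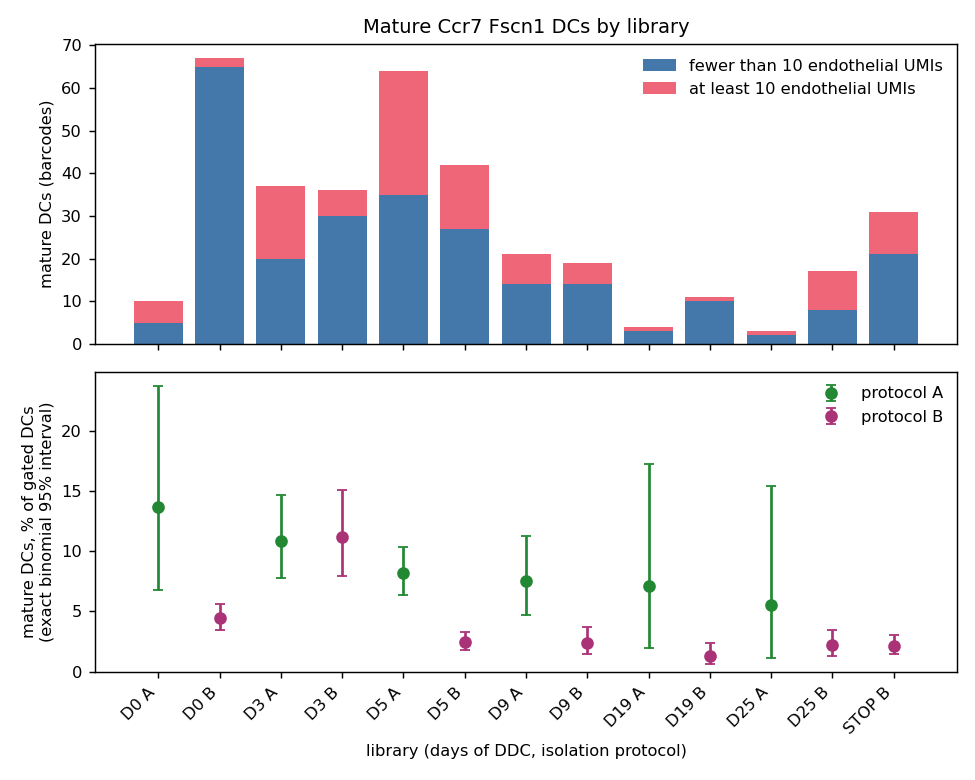
Number of mature DC per library (top, barcodes, split at 10 UMIs of 5 endothelial genes) and their percentage among gated DC (bottom, points with exact binomial 95% intervals, coloured by isolation protocol). D0 B and D5 A hold the most members (67 and 64), and the percentage ranges from 1.34% in D19 B to 13.7% in D0 A.

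Mature DC arise when a tissue DC takes up self or foreign material and, with or without an inflammatory signal, switches to a migratory program. Ccr7, the receptor of the lymphatic chemokines Ccl19 and Ccl21, guides them to the draining lymph node, and Fscn1 bundles actin into the dendrites after which the cells are named. On the way they stop taking up antigen, fix peptide-loaded MHC class II on the surface, and raise costimulatory ligands, T cell attracting chemokines, checkpoint ligands and the non-canonical NF-κB factor Relb. Both lineages of conventional DC can enter this state, cDC1, which carry Xcr1 and Clec9a, and cDC2, which carry Cd209a, Sirpa and, in part, Mgl2 and Clec10a.

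The markers by which the group was named were read first, as a description and no independent check of the label. At least 1 UMI of Il4i1, Socs2 or Apol7c was found in 268 of the 362 members. Socs2, a suppressor of cytokine signaling, was detected in 64.1% of members, against 16.0% of 6196 T-like barcodes, which should lack a DC program. These were chosen by at least 2 Cd3e UMIs and 0 UMIs of H2-Ab1. Apol7c, an apolipoprotein L family gene, was detected in 33.7% against 0.065%, and Il4i1, a secreted amino acid oxidase, in 11.6% against 0.081%. In pooled sums Socs2 was 204 CPM in members, 32.0 CPM in Cd209a-positive and 30.7 CPM in Xcr1-positive DC. For Il4i1 these values were 9.52, 1.39 and 0.275 CPM. The median depth was 12057.5 UMIs in members and 2197 to 7553.5 UMIs per library in T-like barcodes. Across the 11 libraries, Ccr7 ranged from 1314 to 3165 CPM in members (median 1492), and its highest level in any library was 258 CPM in Cd209a-positive and 139 CPM in Xcr1-positive DC. Fscn1 ranged from 457 to 1776 CPM (median 779), against highest levels of 37.1 and 24.3 CPM. Apol7c had its lowest level in D9 B (2.97 CPM), a median of 123 CPM and its highest level in D0 B (454 CPM), and was almost absent from Cd209a-positive DC (0 to 1.47 CPM), whereas Xcr1-positive DC reached 95.04 CPM.

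Part of the members carried transcripts of a second cell type. Of 5 endothelial genes (Pecam1, Cdh5, Stab2, Clec4g and Kdr), 197 members held 0 UMIs, 41 held 1 or 2 and 12 held 3 to 5, while 4 held 6 to 9 and 108 (29.8%) held at least 10. This last share was 8.0% in Cd209a-positive and 15.3% in Xcr1-positive DC. The 108 endothelial-rich members had a median of 19622 UMIs, 7 of Ccr7 and 3 of Fscn1, and the other 254 a median of 9809 UMIs, 29 of Ccr7 and 8 of Fscn1. Among the highest 6% of doublet scores (Scrublet) of each library were 41.7% of the endothelial-rich and 3.54% of the other members. In the pooled sums, the endothelial-rich members had lower CPM of Apol7c (46.6 against 254 CPM), of Cacnb3 (48.5 against 218 CPM) and of Relb (171 against 599 CPM), and higher CPM of the VEGF receptor Kdr (958 against 25.9 CPM). They made up 5 of 10 members in D0 A but 2 of 67 in D0 B, and 29 of 64 in D5 A. At least 10 UMIs of another list were counted in 68 members for monocytes and macrophages, 60 for plasmacytoid DC, 22 for hepatocytes, 20 for B cells, 15 for biliary epithelial cells (BEC), 14 for T and NK cells, 7 for neutrophils and 2 for stellate cells and fibroblasts. The comparisons of DC groups and of stages below were therefore also computed on barcodes with fewer than 10 endothelial UMIs, called endothelial-low, in the members and in the Cd209a-positive and Xcr1-positive DC alike. These values are given where the call of a named gene differs. Since D0 A (5 endothelial-low members) and D25 B (8) then fall below 10 members, these fits have 9 libraries, and 8 between stages, so a difference between the versions can come from the barcodes of any group or from the libraries left out. Versions without members or barcodes rich in other markers left out those with at least 10 UMIs of any of 7 lists. These are the endothelial, T and NK cell, B cell, BEC, neutrophil, hepatocyte, and stellate cell and fibroblast lists. Barcodes rich in monocyte and macrophage or in plasmacytoid DC markers stayed in. Both limits of 10 UMIs were set after the data were seen, and the part of these transcripts in the results was not tested further.

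**Figure D2:**
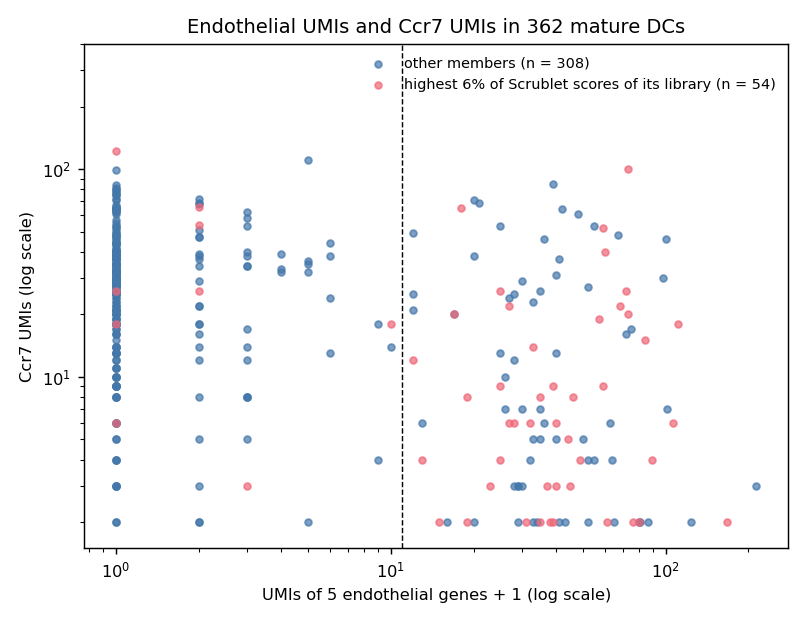
UMIs of 5 endothelial genes plus 1 (x axis, log scale) against Ccr7 UMIs (y axis, log scale) in each of the 362 members, with the 54 members among the highest 6% of doublet scores of their library in red and a dashed line at 10 endothelial UMIs. Of the 108 members at or right of the line 45 are red, against 9 of the 254 left of it, and their median Ccr7 count is 7 against 29.

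Barcodes just inside and just outside the gate were set side by side. The 119 members with 2 or 3 Fscn1 UMIs had a median of 9 Ccr7 UMIs, 251 CPM of Relb, 34.0 CPM of Apol7c and 123 CPM of Ccl17, and 47.1% were endothelial-rich. The 147 barcodes with 1 Fscn1 UMI, just outside the gate, had a median of 5 Ccr7 UMIs, 149 CPM of Relb, 5.39 CPM of Apol7c and 314 CPM of Ccl17, and 53.7% were endothelial-rich. The 43 members with 2 or 3 Ccr7 UMIs were endothelial-rich in 74.4% and held 8.85 CPM of Cacnb3, close to the 8.72 CPM of the 46 barcodes with 1 Ccr7 UMI, while Ccl22 was 106 CPM in these members and 200 CPM in those barcodes.

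To ask what sets mature DC apart from the tissue DC of the same livers, their sums were compared with those of Cd209a-positive and of Xcr1-positive DC by edgeR's quasi-likelihood test with the library as a block and Benjamini-Hochberg adjustment over all genes. Because the same barcodes gave the gate and the readout, a called gene is one that accompanies Ccr7 and Fscn1. Of 9954 genes tested against Cd209a-positive DC, 1548 (15.6%) were higher and 2110 (21.2%) lower in mature DC. Of 9754 genes tested against Xcr1-positive DC, 2067 (21.2%) were higher and 2226 (22.8%) lower. In endothelial-low members, 1225 (13.6%) were higher and 1626 (18.1%) lower of 8986 against Cd209a-positive DC, and 1519 (18.9%) were higher and 1735 (21.6%) lower of 8039 against Xcr1-positive DC. Of 8853 and 8008 genes tested in both versions, 2249 and 2729 were called in both, 1136 and 1085 with all members alone, and 576 and 511 in endothelial-low members alone. The genes called in both had the same direction in 2240 and in 2725 cases. The counts by list below are to be read beside these shares of all genes, and a count near them says nothing about the list.

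All 20 further genes of a list of known mature DC genes were higher against both DC groups, with median log2 fold changes of 2.76 and 2.95, where the median of all genes tested was -0.07 and -0.02. The list was made with earlier results of these data known, so this count describes the program and is no independent check of it. Cacnb3, a subunit of voltage-gated calcium channels, ranged from 108 to 195 CPM in members (median 143), from 0 to 3.79 CPM in Cd209a-positive DC and from 0 to 5.86 CPM in Xcr1-positive DC, so that the groups did not overlap. Its log2 fold change was 6.08 (SE 0.22, adjusted p = 8.3e-14) against Cd209a-positive and 5.29 (SE 0.19, adjusted p = 9.6e-13) against Xcr1-positive DC. Nudt17, a nudix hydrolase gene, ranged from 39.7 to 274 CPM in members and reached at most 1.91 and 2.05 CPM in the other groups, which made it the largest change among named genes in both comparisons (7.67, SE 0.26, and 6.86, SE 0.32). The Rab GTPase-activating Tbc1d4 had a median of 1411 CPM in members against 234 and 166 CPM, with no overlap. Tmem123 (median 633 CPM against 125 and 62.3 CPM), the tetraspanin Tspan3 (351 against 31.1 and 34.8 CPM) and Serpinb9, an inhibitor of granzyme B (270 against 23.7 and 48.0 CPM), likewise did not overlap with either group. The smallest change was that of Cytip, an adaptor of integrin adhesion, with 0.33 (SE 0.12, adjusted p = 0.032) and 0.41 (SE 0.12, adjusted p = 0.0074).

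**Figure D3:**
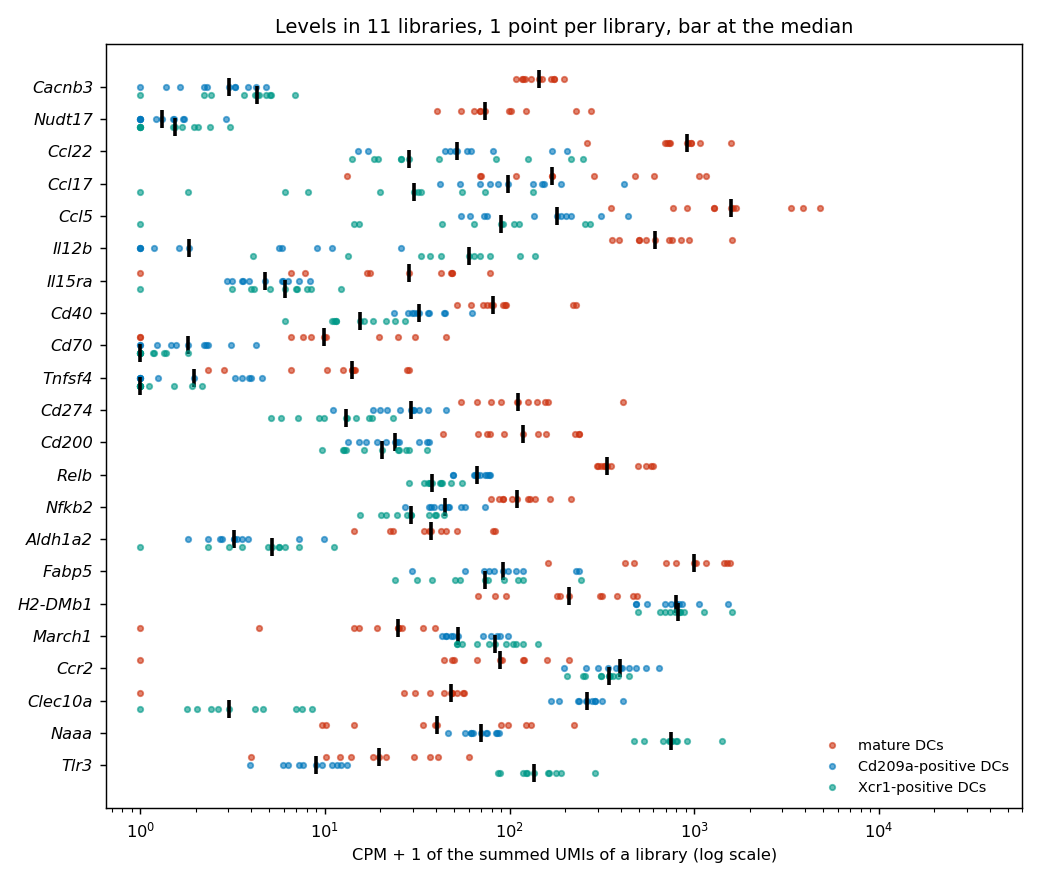
CPM plus 1 (x axis, log scale) of 22 genes in the summed UMIs of mature, Cd209a-positive and Xcr1-positive DC, with 1 point per library (11 libraries) and a black bar at the median. Cacnb3, Nudt17, Il12b, Relb and Nfkb2 lie apart from both other groups in members, Ccl17 overlaps, and March1 lies below both.

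Other genes were named by the size of their change. H2-M2, a non-classical class I gene, ranged from 30.3 to 454 CPM in members and stayed at or under 9.05 CPM in the other groups (log2 fold changes 5.73 and 6.26). The class II β chain gene H2-Eb2 ranged from 137 to 310 CPM against at most 44.0 CPM (3.75 and 4.94). Mreg, which encodes melanoregulin, ranged from 107 to 265 CPM against at most 20 CPM (4.88 and 5.85), and the membrane-anchored metalloproteinase gene Mmp25 from 46.6 to 281 CPM against at most 12.1 CPM (4.50 and 4.24). H2-M2, H2-Eb2 and other MHC genes have near relatives among which counts could be split, so their levels are uncertain. Bcl2l14, of the Bcl2 family, was higher by 5.66 against Cd209a-positive DC and by 1.66 against Xcr1-positive DC, which carried 17.3 to 40.9 CPM of it. On the lower side, the lectin gene Cd209d (-3.38), the leukotriene B4 receptor gene Ltb4r1 (-3.19) and Mgl2 (-2.83) led against Cd209a-positive DC. Naaa (-3.53), Sept3 (-3.37) and Gpr141b (-3.06) led against Xcr1-positive DC.

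Among chemokines, 5 of 10 tested genes were higher and 3 lower against Cd209a-positive DC, and 5 of 9 were higher and 1 lower against Xcr1-positive DC. The Ccr4 ligand Ccl22 ranged from 261 CPM in D3 B to 1577 CPM in D5 B, and did not overlap with Cd209a-positive (14.2 to 203 CPM) or Xcr1-positive DC (13.1 to 250 CPM). Its log2 fold changes were 3.77 (SE 0.21, adjusted p = 5.5e-11) and 3.95 (SE 0.36, adjusted p = 6.8e-08). Ccl17, the other Ccr4 ligand, was far more uneven, with 12.2 CPM in D3 B, a median of 168 CPM and 1157 CPM in D5 B. It overlapped with Cd209a-positive DC (41.2 to 417 CPM), from which it differed by 1.0 (SE 0.36, adjusted p = 0.034), and was higher by 3.29 (SE 0.57) than in Xcr1-positive DC. Per cell, Ccl22 was detected in 65.5% of members and Ccl17 in 32.9%. Ccl5, a chemokine that attracts T cells, had a median of 1581 CPM against 179 and 88.4 CPM and rose by 3.36 (SE 0.37) and 4.41 (SE 0.43), with D25 B (354 CPM) inside the range of Cd209a-positive DC. Cxcl16, the ligand of Cxcr6, showed little spread (472 to 921 CPM) and was higher by 1.45 (SE 0.10) and 1.40 (SE 0.11). Ccl4, an inflammatory chemokine, was lower by -1.48 and -0.82.

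Of 8 chemotactic receptor genes tested, 2 were higher and 4 lower against Cd209a-positive DC, and 5 were higher and 1 lower against Xcr1-positive DC. The monocyte and DC receptor gene Ccr2 ranged from 0 CPM in D0 A to 210 CPM in D19 B in members (median 87.3), against 196 to 645 CPM in Cd209a-positive and 204 to 441 CPM in Xcr1-positive DC, and was lower in 11 of 11 libraries against each. Its log2 fold changes were -2.22 (SE 0.19, adjusted p = 1.9e-08) and -2.0 (SE 0.19, adjusted p = 1.2e-07). Ccr1 (-2.10) and Cx3cr1 (-2.06) were lower than in Cd209a-positive DC, and Ccr1 was higher than in Xcr1-positive DC (1.31), although not in endothelial-low members (1.05, adjusted p = 0.072). The adenosine receptor gene Adora2a was higher against both (2.88 and 3.68) without overlap. S1pr1, a receptor of the lymphatic lipid sphingosine 1-phosphate, was higher by 1.14 and 1.31, but by 1.10 with adjusted p = 0.16 in endothelial-low members against Cd209a-positive DC, and it was under the filter there against Xcr1-positive DC.

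Costimulatory and adhesion ligands were higher in 8 of 12 tested genes against Cd209a-positive DC and in 9 of 11 against Xcr1-positive DC, and lower in 2 each. Cd40, which receives help from T cells, ranged from 50.9 to 227 CPM (median 79.9) against medians of 31.2 and 14.5 CPM, and was higher in 11 of 11 libraries against each (1.34, SE 0.17, and 2.47, SE 0.20). Cd70, the ligand of Cd27, was a low-level gene with a median of 8.92 CPM, and was higher by 3.73 (SE 0.48) and 6.21 (SE 0.63). Tnfsf4, the OX40 ligand, was higher by 3.06 and 4.95. Tnfsf9, the 4-1BB ligand, was lower than in Cd209a-positive DC in all 11 libraries (-1.15) and higher than in Xcr1-positive DC in all 11 (3.22). The classical B7 genes moved less, with Cd80 at 0.63 and 1.53, whereas Cd86 was 0.23 (adjusted p = 0.28) and -0.58. The latter was -0.40 (adjusted p = 0.07) in endothelial-low members. Cd48 was lower against both (-1.52 and -1.19).

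Among genes of checkpoints and tolerance, 8 of 14 tested were higher and 2 lower against Cd209a-positive DC, and 11 higher and 0 lower against Xcr1-positive DC. Cd274, which encodes the checkpoint ligand PD-L1, ranged from 53.5 CPM in D0 A to 410 CPM in D19 B (median 111), above every library of Cd209a-positive (10.1 to 44.0 CPM) and Xcr1-positive DC (4.08 to 22.5 CPM). Its log2 fold changes were 2.30 (SE 0.21, adjusted p = 4.2e-08) and 3.43 (SE 0.20, adjusted p = 2.7e-10). Cd200 (2.39 and 2.68), Fas (1.94 and 2.44), the IL-2 receptor α chain gene Il2ra (3.13 and 4.82) and Aldh1a2, which makes retinoic acid (3.82 and 3.10), did not overlap with either group. Itgb8, part of an integrin that activates TGF-β, was higher by 2.24 and 2.22. Tgfb1 itself was lower against Cd209a-positive DC (-0.81) and -0.14 (adjusted p = 0.33) against Xcr1-positive DC, where it was lower in endothelial-low members (-0.67, adjusted p = 0.0003). Socs3, a feedback inhibitor of cytokine signaling, was lower against the former (-0.64) and higher against the latter (1.15).

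Of 14 cytokine and interleukin receptor genes, 4 were higher and 4 lower against Cd209a-positive DC, and 6 were higher and 2 lower against Xcr1-positive DC. Il12b, the p40 chain of IL-12 and IL-23, ranged from 357 CPM in D25 B to 1601 CPM in STOP B (median 615), against at most 24.9 CPM in Cd209a-positive and 137 CPM in Xcr1-positive DC. The log2 fold changes were 7.45 (SE 0.48, adjusted p = 4.8e-10) and 3.54 (SE 0.23, adjusted p = 1e-09). Only 36.2% of members had an Il12b UMI, with a median of 19 UMIs in those that did. Il12a, whose chain pairs with p40 in IL-12, was under the filter in both comparisons (0 to 5.94 CPM). Il15 (2.46 and 1.51) and its presenting receptor Il15ra (2.83 and 2.38) were higher against both groups. Il1b was lower than in Cd209a-positive DC (-1.33) and 0.38 (adjusted p = 0.16) against Xcr1-positive DC, where it was higher in endothelial-low members (0.67, adjusted p = 0.0053). Il18 was lower than in Xcr1-positive DC (-1.96), with -0.27 (adjusted p = 0.39) against the other group.

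The NF-κB list of subunits, inhibitors and feedback genes separated the comparisons. All 17 genes were higher than in Xcr1-positive DC (median 1.58), whereas against Cd209a-positive DC 9 were higher and 4 lower (median 0.32). Relb ranged from 297 CPM in STOP B to 600 CPM in D3 B, against 48.2 to 77.8 CPM and 27.6 to 54.2 CPM, with log2 fold changes of 2.51 (SE 0.14, adjusted p = 1e-10) and 3.19 (SE 0.14, adjusted p = 8.4e-12). Its non-canonical partner Nfkb2 ranged from 78.2 to 214 CPM without overlap (1.32, SE 0.12, and 1.93, SE 0.11). Nfkb1 of the canonical pathway was lower than in Cd209a-positive DC in 11 of 11 libraries (-0.59) and higher than in Xcr1-positive DC in 11 of 11 (0.85), and Tnip3, an inhibitor of the pathway, was similarly -0.93 and 2.31. Nfkbia, whose product IκBα retains NF-κB in the cytoplasm, was -0.22 and 1.62, and in endothelial-low members the former was 0.13 (adjusted p = 0.36).

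Because all 17 genes were higher than in Xcr1-positive DC, the 250 bases before their starts were searched in the RefSeq promoters of GRCm38.p6 on either strand for a κB-type motif, the letters GGG and TTTCC with any 2 bases between them. They were found in 4 of the 14 genes of this list with a promoter in the table (Rel, Nfkb2, Nfkbia and Tnfaip3), in 0 of 15 further mature DC genes, in 3 of 11 survival genes, in 2 of 8 chemokines, and in 1.65% of all 27025 genes with a promoter. The promoters of Nfkb2, at chr19:46304487-46304736 on the plus strand, and of Rel, at chr11:23770970-23771219 on the minus strand, are shown 5′ to 3′ with the matched letters in capitals, which begin 11 and 91 bases before the start of transcription. The table holds 3 promoters of Nfkb2, of which the matching one is shown.
Nfkb2: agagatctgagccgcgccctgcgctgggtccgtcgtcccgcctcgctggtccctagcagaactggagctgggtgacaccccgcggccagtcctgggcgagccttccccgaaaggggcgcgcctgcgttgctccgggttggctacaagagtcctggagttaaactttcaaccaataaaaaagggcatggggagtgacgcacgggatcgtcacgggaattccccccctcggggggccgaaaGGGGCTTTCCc
Rel: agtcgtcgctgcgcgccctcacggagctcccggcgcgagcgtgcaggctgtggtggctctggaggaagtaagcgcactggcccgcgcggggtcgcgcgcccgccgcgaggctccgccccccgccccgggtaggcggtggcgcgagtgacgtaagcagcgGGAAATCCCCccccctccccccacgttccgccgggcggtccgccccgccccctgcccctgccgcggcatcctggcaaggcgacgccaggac
Rel had log2 fold changes of 0.89 and 1.51, and Nfkb2 is given above. A match says only that these letters are present, and no match says nothing on binding.

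Genes of antigen presentation were read by class, with no test between the classes. None of 12 MHC class II pathway genes was higher than in Cd209a-positive DC and 11 were lower (median -0.88), while against Xcr1-positive DC 3 were higher and 7 lower (median -0.44). In endothelial-low members the counts were 0 higher and 6 lower, and 4 higher and 3 lower. The class II β chain gene H2-Eb2 is outside this list and was higher against both groups (3.75 and 4.94), with the uncertain level named above. H2-DMb1, a chain of the peptide exchange factor of the loading compartment, ranged from 66.9 CPM in D0 A to 490 CPM in D25 B (median 210), against medians of 792 and 816 CPM, and was lower in 11 of 11 libraries against each (-1.79, SE 0.15, and -1.93, SE 0.17). H2-DMa followed it without overlap (-1.52 and -1.46), as did March1, the ubiquitin ligase that removes class II from the surface (-1.63 and -2.06). The class II chain gene H2-Aa changed less (-0.59 and -0.48), and in endothelial-low members it was -0.22 (adjusted p = 0.074) and -0.11 (adjusted p = 0.34). Of 13 class I pathway genes, 9 were higher and 0 lower than in Cd209a-positive DC, and 5 were higher and 5 lower than in Xcr1-positive DC. In endothelial-low members the counts were 11 higher and 0 lower, and 5 higher and 2 lower. H2-K1 was higher against both (0.42 and 0.79), as were Nlrc5, the transactivator of class I genes (1.99 and 1.07), and the proteasome activator gene Psme2 (1.39 and 0.50). The peptide transporter gene Tap1 (0.50 and -0.41) and the immunoproteasome gene Psmb9 (0.69 and -0.84) lay between the groups, and Tap1 was -0.22 (adjusted p = 0.13) against Xcr1-positive DC in endothelial-low members.

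Uptake and pattern recognition receptors were lower in 11 of 20 tested genes and higher in 4 against Cd209a-positive DC, among the lower ones Tlr2 (-1.13), the lectin receptor gene Clec12a (-0.87) and the Fc receptor gene Fcgr3 (-1.22). Against Xcr1-positive DC, 8 of 18 were higher and 6 lower. In the endothelial-low version, 2 of 19 were higher and 8 lower against Cd209a-positive DC, and 3 of 17 were higher and 6 lower against Xcr1-positive DC, where the median went from 0.50 to -0.46. Some directions turned in that version. The mannose receptor gene Mrc1, also an endothelial gene of the liver, was higher against both groups in all members (0.98 and 1.26), but -1.38 (adjusted p = 0.0029) and -0.57 (adjusted p = 0.23) in endothelial-low members. Fcgr2b was 0.35 (adjusted p = 0.12) and 1.02 (adjusted p = 0.0023) in all members and -1.69 and -0.46 in endothelial-low members, where both were called. The engulfment receptor gene Mertk lost both calls (1.03 and 1.02, then -1.02 and -1.44 with adjusted p = 0.18 and 0.052). The 5 endothelial genes themselves were all higher against both groups, with medians of 1.16 and 1.24. They are not read in endothelial-low members, which were selected on their UMIs.

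The remaining lists gave the following counts. Of all genes tested, 15.6% were higher and 21.2% lower against Cd209a-positive DC, and 21.2% and 22.8% against Xcr1-positive DC. A count near these shares, as for the lipid genes, is no result about its list. Cell cycle genes were lower in 8 of 14 and in 13 of 14, and higher in 0, as for Top2a (-0.94 and -1.50) and Cenpf (-1.49 and -1.97). Of 14 cytoskeletal and motility genes 10 were higher against each group, with 3 and 2 lower, as for the myosin gene Myo1g (1.5 and 1.93) against Coro1a (-1.01 and -0.84) and the integrin gene Itgax (-0.86 and -0.59), a sort marker of protocol B. Among 13 survival genes, 7 and 10 were higher and 2 and 1 lower, with Bcl2l1 at 1.17 and 0.78. Bcl2a1b (1.58 and 1.71) and Bcl2a1d (1.20 and 0.90) are near-identical copies whose counts are uncertain. Of 12 lipid genes 3 were higher against each group and 0 lower, and in endothelial-low members 3 were higher and 2 lower of 11 against Cd209a-positive DC and 6 were higher and 2 lower of 11 against Xcr1-positive DC. The fatty acid-binding protein gene Fabp5 had a median of 996 CPM against 91.1 and 72.8 CPM (3.09, SE 0.30, and 3.55, SE 0.34). Of 18 transcription factors, 13 were higher against each, with 3 and 4 lower, among them Etv3 (1.14 and 1.81) and Nr4a3 (1.67 and 1.70), whereas Irf4 was -0.74 and 2.84 and Spib 0.02 (adjusted p = 0.97) and 3.87. In endothelial-low members, Irf4 (-0.48, adjusted p = 0.053) lost its call against Cd209a-positive DC and Spib (0.72, adjusted p = 0.048) gained one. Interferon-induced genes were higher in 6 and 8 of 14 and lower in 1 and 3, as for the guanylate-binding protein gene Gbp2 (1.84 and 2.48). Immediate early and heat shock genes were lower in 6 and 3 of 12 and higher in 0 and 2. Ccl17, Ccl22 and Arpin, 3 of the maturation genes that the study names for these samples, were all higher against both, and since they were taken from an account of the same samples that is not independent evidence. Markers of other cells were called as follows against Cd209a-positive and Xcr1-positive DC. Of 8 T and NK cell markers, 0 and 4 were higher and 1 and 0 lower, and of 4 pDC markers, 0 and 4 were higher and 4 and 0 lower. Of 9 monocyte and macrophage markers, 0 and 1 were higher and 4 and 2 lower, and of 3 B and plasma cell markers, 1 and 2 were higher and 1 and 1 lower. None of the neutrophil (4), BEC (5) and hepatocyte (4) markers was called at an adjusted p under 0.05 in either, and 3 of 4 stellate and fibroblast markers were lower in both. In endothelial-low barcodes against Xcr1-positive DC, 1 of 4 pDC markers was higher, 5 of 8 monocyte and macrophage markers were lower, and 1 of 3 B and plasma cell markers was higher. Against Cd209a-positive DC, 0 of 3 B and plasma cell markers were higher, and the 1 stellate and fibroblast marker tested was not called in either comparison.

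**Figure D4:**
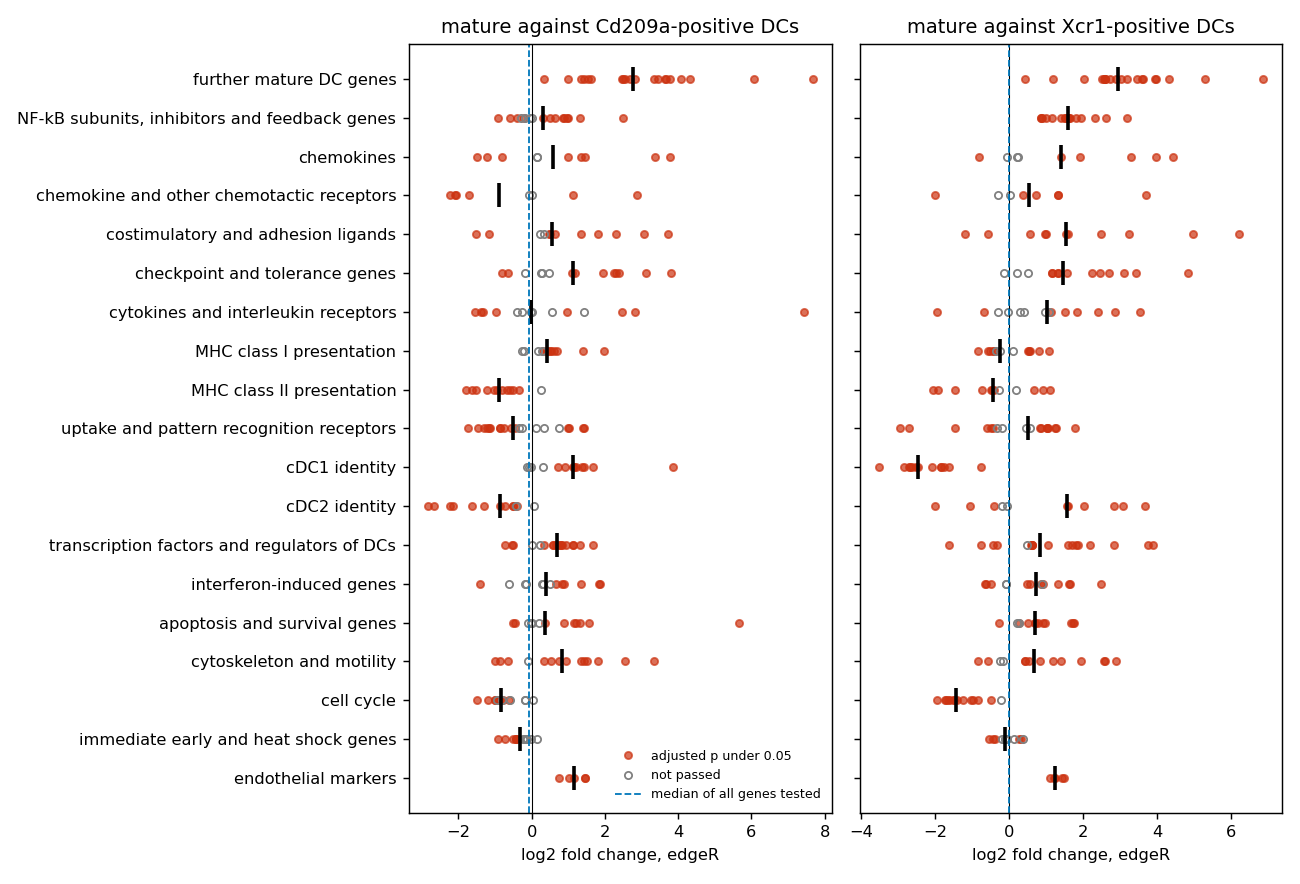
Log2 fold changes (x axis) of the tested genes of 19 lists (rows) in mature against Cd209a-positive (left) and Xcr1-positive DC (right), filled red where the adjusted p is under 0.05, with a black bar at the list's median and a dashed line at the median of all genes tested. NF-κB genes lie on both sides at left (9 higher, 4 lower) and all on the higher side at right (17), and cDC1 genes change sides (9 higher at left, 13 lower at right). The rows of cDC1 and cDC2 genes are partly set by the gates on Xcr1 and Cd209a.

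Since cDC1 and cDC2 can both mature, identity genes were read within the members. The groups compared were chosen by Cd209a and Xcr1, genes of these identities, so the counts below are partly set by the gates and are a description. In the sums, 9 of 13 cDC1 genes were higher and 0 lower than in Cd209a-positive DC, and all 13 were lower than in Xcr1-positive DC (median -2.48). Naaa, a lysosomal amidase gene of cDC1, had a median of 39.7 CPM in members, 69.1 CPM in Cd209a-positive and 745 CPM in Xcr1-positive DC. In endothelial-low members 4 cDC1 genes were higher than in Cd209a-positive DC, 8 were not called, and Naaa was lower (-1.10, adjusted p = 0.018). Of 13 cDC2 genes, 0 were higher and 11 lower than in Cd209a-positive DC, as for Clec10a (-2.65, SE 0.15), which was higher than in Xcr1-positive DC (3.68, SE 0.27). Against Xcr1-positive DC, 6 of 11 cDC2 genes were higher and 3 lower. Single members held little of either gene that chose the other groups. Xcr1 without Cd209a was found in 64, Cd209a without Xcr1 in 45, both in 17 and neither in 236.

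Members were then assigned by which of 2 lists of 7 genes each gave more UMIs, with at least 2 UMIs needed. By this measure 87 lay on the cDC1 side, 155 on the cDC2 side and 120 on neither, which puts 36.0% (exact 95% interval 29.9 to 42.3%) of the assigned members on the cDC1 side, with 140 members near the dividing line. Klf4 alone gave 43.6% of the cDC2 UMIs and was also found in 12.0% of T-like barcodes. Without it the sides were 113 and 88, with 161 on neither, so that the majority changed sides. The share on the cDC1 side was 35.1% at steady-state (13 of 37), 31.8% at onset (41 of 129), 36.4% at progression (20 of 55) and 61.9% in STOP B (13 of 21, interval 38.4 to 81.9%). Without Klf4 these shares were 62.1% (18 of 29), 53.5% (54 of 101), 51.0% (26 of 51) and 75% (15 of 20).

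In the 3 libraries with at least 10 members on each side (D0 B, D3 A and D5 A), 29 of 4908 genes (0.591%) were higher on the cDC1 side and 21 (0.428%) on the cDC2 side, with library as a block and the 7 and 7 dividing genes left out. The sides in this fit include Klf4 among the dividing genes, and no fit without it was run. Higher on the cDC1 side were Itgae (3.96), Ifi205 (3.02), Rab7b (2.77), Ppt1 (2.69, SE 0.25, adjusted p = 0.000178) and Cd24a (2.30), which are cDC1 genes outside the dividing list. The division used genes of the same barcodes, so genes that go with the dividing genes are no independent evidence of lineage. Higher on the cDC2 side were Gdf15, a stress-induced cytokine gene (-7.36), the chemokine gene Ccl24 (-5.12), Mmp12, a macrophage elastase gene (-4.95), H2-M2 (-3.80), the scavenger receptor gene Msr1 (-2.08), Ccl17 (-2.36, SE 0.34, adjusted p = 0.0038), Fabp5 (-2.09), Il1b (-1.73) and S100a4 (-1.54). Of the 18 tested genes of the mature DC list 0 were called between the sides. With 0.591% and 0.428% of all genes called, this count says nothing on whether the program differed between them. Ccl22 was 0.08 (adjusted p = 0.985) and Il12b 1.90 (adjusted p = 0.064). These calls rest on few libraries. They have no endothelial-low version, since D0 B alone then keeps 10 members on each side. Endothelial-low members were 4 of 10 on the cDC1 side and 5 of 16 on the cDC2 side in D3 A. In D5 A they were 7 of 14 and 13 of 32, and in D0 B 13 of 13 and 17 of 19. The part of endothelial-rich barcodes in these calls was not tested. Without D0 B only Mmp12 kept its call among the named genes (-5.24, adjusted p = 0.0137) and 1 gene was called in all, and without D3 A 29 genes were called.

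The stages of disease were compared within the members with the isolation protocol as a term. Of 6674 genes tested, 4 (0.0599%) were lower at onset than at steady-state and 4 (0.0599%) were lower at progression than at steady-state, and 0 were higher. The genes were the same in both, Isg15, Irf7, Sct and Cd79a. Between progression and onset 0 genes (0%) were called by edgeR and 0 by DESeq2. In edgeR's test 142 of the 6674 genes had an unadjusted p under 0.05, fewer than this threshold passes on average with no change. Of the 20 genes of the mature program, 0 were called in any contrast of stages. With 0.0599%, 0.0599% and 0% of all genes called, this count says nothing on whether the program changed. The median log2 fold change of these 20 genes was -0.45 at onset and -0.36 at progression against steady-state, where all genes had 0.06 and 0.05. Between progression and onset it was 0.10, where all genes had -0.02. Ccl22 was 826 ± 193 CPM at steady-state, 877 ± 549 CPM at onset and 864 ± 164 CPM at progression (mean ± SD, n = 2, 4 and 4 libraries), and Il12b was 651 ± 145, 560 ± 146 and 660 ± 275 CPM. Cd40 was 227 and 219 CPM at steady-state and lay between 50.9 and 95.3 CPM in all 8 DDC libraries, yet its change was not called (-1.80, adjusted p = 0.233, and -1.61, adjusted p = 0.300).

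Isg15, an interferon-induced ubiquitin-like protein gene, had 1217 CPM in D0 A and 613 CPM in D0 B. On DDC it had 137 CPM in D3 A, 181 CPM in D3 B, 98.8 CPM in D5 A, 79.9 CPM in D5 B, 60.6 CPM in D9 A, 20.8 CPM in D9 B, 27.4 CPM in D19 B and 78.2 CPM in D25 B, so that no DDC library reached the steady-state ones. The log2 fold changes were -2.91 (SE 0.45, adjusted p = 0.022) at onset and -4.24 (SE 0.49, adjusted p = 0.00184) at progression. The onset call of Isg15 was lost without D3 A (adjusted p = 0.172), D5 A (0.214) or D5 B (0.183), and at 3 UMIs of Ccr7 and Fscn1 (0.0803), at folds of -2.70 to -2.95. Irf7, the master regulator of type I interferon, had 334 and 204 CPM at steady-state and 9.12 to 59.9 CPM on DDC (-2.70, SE 0.40, adjusted p = 0.0213, and -3.63, SE 0.46, adjusted p = 0.00347). Its onset call was lost without D3 B (adjusted p = 0.108), D5 A (0.102) or D5 B (0.0889), at 3 UMIs of Ccr7 and Fscn1 (0.0803), and at 20 cells per library (0.0525), at folds of -2.44 to -2.83. At 20 cells per library D0 B is the only steady-state and D9 A the only progression library. The folds at progression were then -3.59 for Isg15 and -3.66 for Irf7, and neither call held. Without members rich in other marker lists, where D0 B is the steady-state library, Isg15 was -2.83 (adjusted p = 0.191) at onset and -5.89 (0.0526) at progression, and Irf7 -3.78 (0.269) and -3.38 (0.217). The other interferon genes were not called, though the medians of the 13 tested were -1.30 and -1.16, as for Oasl1 (-1.89 and -2.69, not called) and Gbp2 (-1.30 and -2.97, not called). Single members held much of these counts. In D0 A, 65 of 91 Isg15 UMIs lay in 1 of 10 members, and in D0 B 120 of 336 did, with 41 of 67 members positive. Without the highest barcode of each gene in each library, Isg15 kept its call at onset (-2.49, adjusted p = 0.0459) and progression (-3.81, adjusted p = 0.0027), and Irf7 did not (-2.19, adjusted p = 0.250, and -2.88, adjusted p = 0.167).

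Sct, the gene of the hormone secretin and a transcript of plasmacytoid DC, had 361 and 257 CPM at steady-state and 0 to 2.97 CPM in the 8 DDC libraries. All 27 of its UMIs in D0 A lay in 1 member and 121 of 141 in D0 B lay in another. Its calls were lost without the highest Scrublet scores (-7.26 and -7.97, adjusted p = 0.12 and 0.0991) and without members rich in other marker lists (-6.57 and -7.91, adjusted p = 0.316 and 0.247), and at progression at 20 cells per library (-12.80, adjusted p = 0.202). D0 A, with 5 and 4 members left in the first of these versions and the second, drops out of them, so the folds rest on D0 B at steady-state. The second version did not remove members rich in plasmacytoid DC markers. At 20 cells per library D0 A drops out too, and D9 A is the only progression library. Cd79a, a chain of the B cell receptor, had 348 and 190 CPM at steady-state against 0 to 23.8 CPM, and 83 of its 104 UMIs in D0 B lay in 1 member. Without the highest barcodes Cd79a was still called at onset (adjusted p = 0.0436) but not at progression (adjusted p = 0.167), where the call was also lost without D9 A (0.15) and without D9 B (0.139). At 20 cells per library, which leaves D0 B at steady-state and D9 A at progression, its fold at progression was -8.59, and its call did not hold. Cd79a had no test at 3 UMIs of Ccr7 and Fscn1 or without members rich in other marker lists. The summed level of the B cell markers was 438 to 949 CPM at steady-state and 38.9 to 137 CPM on DDC. In Cd209a-positive DC it was 267 to 404 CPM at steady-state, 101 to 236 CPM at onset and 132 to 191 CPM at progression. In Xcr1-positive DC it was 166 to 255, 106 to 163 and 93.2 to 118 CPM. The endothelial markers summed to 2567 CPM in D0 A and 67.5 CPM in D0 B in members. The part of both marker lists in the 4 differences was not tested. In endothelial-low members, which leave D0 B as the steady-state library, Isg15 (-2.40, adjusted p = 0.322) and Irf7 (-3.29, adjusted p = 0.411) were not called at onset, nor were Irf7 (-3.77, adjusted p = 0.193) and Cd79a (-9.17, adjusted p = 0.0644) at progression, although of these folds that of Isg15 alone was smaller than in all members. Without D0 B 0 genes were called at onset and 0 at progression, and without D0 A 54 and 129. The folds of Isg15 (-3.00 and -4.36) and Irf7 (-2.68 and -3.60) without D0 B stayed close to those with both libraries, and all 4 genes stayed called without D0 A.

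**Figure D5:**
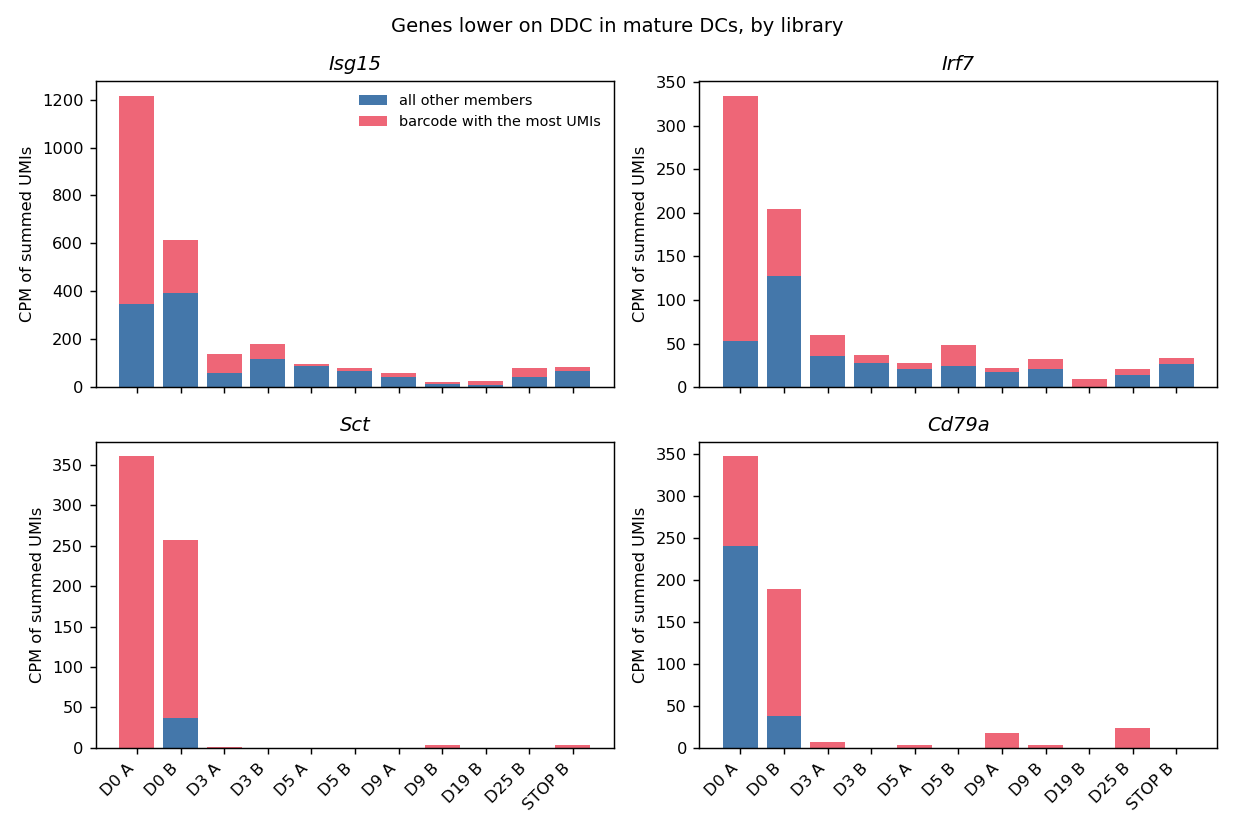
CPM (y axis) of Isg15, Irf7, Sct and Cd79a in the summed members of each library (x axis), split into the barcode with the most UMIs of the gene (red) and all other members (blue). All 4 genes are highest in D0 A and D0 B, and nearly the whole Sct bar in both, with 27 of 27 and 121 of 141 UMIs, is the part of 1 barcode.

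For the interferon genes, a core of the interferon-stimulated response element, the letters GAAA and GAAA with any 2 bases between them, was searched on either strand of the same promoters. It was found in 7 of the 12 interferon-induced genes with a promoter in the table, Isg15 among them, in 2 of 15 further mature DC genes (Cytip and Serpinb9), in Apol7c, in 0 of 14 NF-κB genes and in 3.46% of all genes with a promoter. Isg15, at chr4:156200819-156201068, and Apol7c, at chr15:77533316-77533565, both on the minus strand of GRCm38.p6, are shown as an interferon gene that fell and as the marker with the largest ratio of its highest to its lowest library among those at more than 0 in every library. The capitals cover 3 overlapping matches in Isg15, beginning 78, 72 and 66 bases before the start, and 2 in Apol7c, beginning 55 and 49 bases before it.
Isg15: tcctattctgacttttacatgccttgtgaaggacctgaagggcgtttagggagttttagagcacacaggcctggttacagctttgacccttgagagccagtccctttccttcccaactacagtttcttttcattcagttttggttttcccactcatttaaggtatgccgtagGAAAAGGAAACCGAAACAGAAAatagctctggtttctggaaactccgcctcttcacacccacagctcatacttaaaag
Apol7c: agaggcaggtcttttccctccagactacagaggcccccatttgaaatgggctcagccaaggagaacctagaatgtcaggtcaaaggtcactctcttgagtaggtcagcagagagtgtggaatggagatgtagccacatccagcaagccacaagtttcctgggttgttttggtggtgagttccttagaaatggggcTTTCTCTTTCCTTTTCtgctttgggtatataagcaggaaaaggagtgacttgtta

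Whether the change with DDC differed from that of Cd209a-positive DC was tested as an interaction over 9855 genes. It was called for 2 genes (0.0203%), both with a larger fall in mature DC, Isg15 (-2.27, SE 0.37, adjusted p = 0.0427) and Sct (-9.79, adjusted p = 0.0221), where the size for Sct depends on the prior count because most libraries are at 0. Isg15 in Cd209a-positive DC stayed within 29.8 to 180 CPM in the 11 libraries. The call of Isg15 was lost in 13 alternatives, as without endothelial-rich members (-1.65, adjusted p = 1), without D0 A (-1.52, adjusted p = 0.401) or without D5 A (-2.29, adjusted p = 0.14), and without D19 B or without D9 A 0 genes were called.

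Mature DC were a minority of the gated DC in every library. Their share of members, Cd209a-positive and Xcr1-positive DC together was 13.7% in D0 A (10 of 73, exact 95% interval 6.77 to 23.8%) and 4.48% in D0 B, 2.47% in D5 B, 8.21% in D5 A, 10.9% in D3 A and 11.1% in D3 B, and between 1.34% and 7.5% in the 6 progression libraries. Means were 9.09 ± 6.52% at steady-state, 8.18 ± 4.03% at onset and 4.35 ± 2.71% at progression (SD, n = 2, 4 and 6). In STOP B it was 2.15%. DDC and D0 libraries differed by -3.21 percentage points (exact permutation test within protocol, two-sided p = 0.194), and by 1.40 without D0 A. Progression was lower than onset by 3.83 percentage points, the most extreme of 100 arrangements (exact permutation test, two-sided p = 0.01, the smallest they can give). The sorts set which cells enter a library and the gate depends on depth. When every cell was thinned to 1500 UMIs before gating, progression minus onset was 0.464 points (p = 0.81, exact permutation test). The progression mean then rests on D19 A and D25 A, with 1 of 9 and 1 of 10 gated DC (11.1% and 10%), while the other 4 progression libraries had 0 to 4.29% and the onset libraries 1.05 to 6.58%. In endothelial-low members the difference was -3.26 (p = 0.07, exact permutation test), and without barcodes rich in other markers -2.87 (p = 0.14, exact permutation test). The exact permutation p also reached 0.125 without D3 A, 0.05 without D5 A, 0.117 without D9 B, and 0.133 without D19 B or without D25 B.

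Recovery is 1 library without a replicate, so it was compared with D19 B of the same protocol by values and exact 95% Poisson intervals, which cover counting error only. STOP B held 31 members with 605431 UMIs and D19 B 11 members with 109631 UMIs. Of 832 genes with at least 200 CPM in either, 188 were higher in STOP B with intervals apart and 184 lower. These counts leave out the gate genes, the markers Il4i1, Socs2 and Apol7c, and predicted, mitochondrial and ribosomal genes. Il12b was 1601 CPM (1501 to 1705) in STOP B and 502 CPM (378 to 653) in D19 B, where 42 of its 55 UMIs lay in 1 member. Ccl5 was 768 CPM (700 to 841) against 3329 CPM (2997 to 3689), Cd274 155 CPM (125 to 190) against 410 CPM (299 to 549), and Relb 297 CPM (255 to 344) against 547 CPM (418 to 704). D19 B was the highest progression library for Cd274, and STOP B lay above the other 3, which had 65.4 to 108 CPM. For Ccl5 the other 3 had 354 CPM (D25 B), 917 and 1679 CPM, so that STOP B lay within their range, and for Relb they had 299 to 355 CPM. These values have no endothelial-low version. Endothelial-rich members were 10 of 31 in STOP B and 1 of 11 in D19 B, and the endothelial markers summed to 834 and 128 CPM. The part of this imbalance in the values was not tested. Ccl22 did not separate STOP B from D19 B, with 922 CPM (847 to 1001) against 739 CPM (587 to 918), nor did Isg15, with 85.9 CPM (64.1 to 113) against 27.4 CPM (5.64 to 80.0). The largest ratios belonged to genes of other cells. The keratin gene Krt8 had 692 CPM in STOP B and was at 0 in D19 B, Spp1, which encodes osteopontin, had 2953 against 9.12 CPM, and the BEC genes Krt19 and Epcam had 362 and 383 CPM against 9.12 and 18.2 CPM. Chil4 and Reg1 were high in STOP B through 1 member, which gave 1735 of 1737 and 546 of 546 UMIs. The complement genes C1qa, C1qb and C1qc were higher in D19 B, at 283, 456 and 301 CPM, with 29 of 31, 47 of 50 and 31 of 33 UMIs in a single member for each gene. The BEC markers summed to 1558 CPM in STOP B, and their part in these differences was not tested.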

How the data were processed

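Liver cells of 13 libraries were measured by 10x Genomics 3′ scRNA-seq. The authors deposited unfiltered matrices of raw UMI counts, and the submitters' processing notes name kallisto and GRCm38, with versions not given in the sources used here. Barcodes of at least 1500 UMIs were kept and gated on raw counts, doublets were kept in the main analysis, and Scrublet (scanpy 1.11.5) scored them. The members and gene lists were chosen with earlier results of these data known.

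Counts were summed per library and DC group where at least 10 barcodes were present. They were tested in R 4.3.3 with edgeR 4.0.16 (TMM, filterByExpr, quasi-likelihood F test, Benjamini-Hochberg threshold 0.05), with library as a block between DC groups and isolation protocol as a term between stages. The standard error is the log2 fold change divided by the square root of F. DESeq2 1.42.0 was an alternative, as were the limits on UMIs, gate and cells, Scrublet scores, each library left out, and further exclusions chosen after seeing the data. Shares of DC were compared by exact permutation within protocol (Python 3.11.15, scipy 1.17.1), with exact Clopper-Pearson intervals, and STOP B by exact Poisson intervals, both of which cover counting error only. Named genes were those of the lists and, per comparison and direction, the 12 called genes of largest change whose mean log2 CPM reached 5, leaving out gate, predicted, mitochondrial and ribosomal genes. For STOP B they were the 6 largest ratios per direction at 200 CPM or more.

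In counts simulated with 200 genes changed by 2 on the log2 scale, 98% were recovered against Cd209a-positive and against Xcr1-positive DC, 54.5% at onset, 48.5% at progression against steady-state, 82% at progression against onset, 49% for the interaction and 87.5% between the cDC sides. The replicate number marks the isolation protocol in the D0 to D25 libraries, which the stage tests use, and STOP B is outside them. Deviations from stage means correlated between -0.098 and 0.249 in 16 library pairs of the same protocol and between -0.249 and 0.098 in 16 pairs of different protocols. D0 A and D0 B, the only steady-state libraries, deviate oppositely by construction (correlation -1). The ends of both ranges come from pairs with these libraries, so the mirrored ranges cannot tell whether the protocol matters. An item withheld for evaluation is not reported here.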

Additional observations from a re-analysis of the deposited data

Results flagged for a closer look

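In each stage with 4 libraries of at least 10 members, the highest and lowest library were compared with the others by Dixon's criterion, which chance meets in about 1 of 20 groups, and 6 of 26 groups met it. Of these, both groups of Sct rest on 1 UMI in 1 library against 0 elsewhere, which meets the criterion by construction. At onset, Ccl17 was 1157 CPM in D5 B against 12.2 to 168 CPM in the others, with 221 of its 623 UMIs in 1 member. Relb was 600.3 CPM in D3 B against 311 to 327 CPM, and was found in 36 of 36 members there. Arpin was 52.0 CPM in D3 B against up to 16.0 CPM, from 47 UMIs in 21 members. Sct was 1.33 CPM in D3 A, from 1 UMI, and 0 in the other onset libraries. At progression, Cd274 was 410 CPM in D19 B against 65.4 to 108 CPM, from 45 UMIs in 9 members, and Sct was 2.97 CPM in D9 B, from 1 UMI, and 0 in the others.

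The change with DDC in mature DC minus that in Cd209a-positive DC was called by edgeR's interaction term for Isg15 (-2.27 on the log2 scale, adjusted p = 0.0427) and for Sct (-9.79, adjusted p = 0.0221). Both genes had much of their steady-state UMIs in single members.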

How the results depend on the processing

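Both comparisons between DC groups stayed within 1.5 times their number of called genes under every alternative run, with 2926 to 3713 genes against Cd209a-positive and 3669 to 4332 against Xcr1-positive DC when single libraries were left out. Counts between stages did not. Against steady-state, DESeq2 called 22 genes at onset and 20 at progression, no filter on low counts 95 and 164, at least 3000 UMIs per barcode 46 and 131, at least 3 UMIs of Ccr7 and Fscn1 16 and 44, removal of the highest Scrublet scores 64 and 96, and at least 20 cells per library and group 58 and 7. Apart from DESeq2 and the filter, these settings also leave D0 A with fewer than the required members, so D0 B is then the steady-state library. These calls went in both directions, unlike the 4 and 4 lower genes, except at 20 cells at progression, and the cause was not tested. At 20 cells D9 A is the only progression library, so that progression against steady-state sets it against D0 B alone, a library of the other protocol. At progression against steady-state, 0 genes were called without members rich in any of 7 other marker lists, where D0 A is again left out, and 1 without the highest barcode of each gene in each library, both chosen after seeing the data. Progression against onset gave 41 genes with no filter and 5 at 20 cells. The interaction gave 35 genes with no filter, 0 without the highest Scrublet scores, 1 at 20 cells and 6 without members rich in other markers. The cDC sides gave 137 genes with no filter. Leaving out single libraries gave 0 to 54 genes at onset (54 without D0 A, 0 without D0 B), 0 to 0 for progression against onset, 0 to 129 at progression against steady-state (129 without D0 A, 0 without D0 B), 0 to 9 for the interaction (9 without D0 B) and 1 to 37 between the cDC sides. A stage left with 1 library was assumed to vary like the others. For the share of gated DC, DDC minus D0 ranged from -7.82 to 1.40 points (p = 0.0333 without D3 B, exact permutation test) and progression minus onset from -5.73 to -2.84. Progression minus onset was -3.26 without endothelial-rich barcodes, -2.87 without barcodes rich in other markers (p = 0.14, exact permutation test) and 0.464 after thinning to 1500 UMIs.

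In the D0 to D25 libraries the replicate number is the protocol, so the protocol term is the replicate block. Without this block, 4 genes were called at onset, 0 between progression and onset and 4 at progression against steady-state, so it changed no count. Between DC groups of the same library, the library is the block. D0 A, the shallowest sum, holds 10 members and 74788 UMIs.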
